A study of Mus musculus with 4 samples.

Results

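The 10 genes described here encode the core of the major histocompatibility complex (MHC) class I pathway. They are the class I heavy chain genes H2-K1 and H2-D1, the light chain gene B2m, the transactivator gene Nlrc5, the peptide transporter genes Tap1 and Tap2, the tapasin gene Tapbp, and the immunoproteasome subunit genes Psmb8, Psmb9 and Psmb10. They were chosen by name for these roles, with earlier results of these data known. All 10 were found among the 24943 genes of the count table and in the FPKM table, and all 10 were among the 13543 genes that reached 1 CPM (counts scaled to a common library total) in at least 1 library. The measurements are RNA-seq of poly(A) RNA from 4 samples of lymphoma-bearing mouse spleen, and the series title names the role of a TP63 fusion in such tumours. Red cells were lysed and the spleen cells were not sorted, so each library holds tumour cells and other spleen cells. All 4 samples carry 1 genotype label, transgenic mouse, and 1 treatment label for a tumour-enlarged spleen. The transgene, its promoter, the strain and the age are not given in the labels. Lymphomas 1, 2, 3 and 4 stand for the samples titled GW19, GW95, GW255 and GW328, and the labels do not say that each came from a separate animal, so part of their spread can be technical. There is 1 group and no labelled contrast, so no test between conditions was made and differences between libraries are given as sizes.

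Class I molecules display short peptides from inside the cell to CD8 T cells and to natural killer cells. The proteasome cuts proteins into peptides, the TAP transporter carries them into the endoplasmic reticulum, and tapasin helps to load them onto a heavy chain paired with beta-2 microglobulin. In lymphocytes and after exposure to interferon gamma, the immunoproteasome subunits take the place of the constitutive catalytic subunits. NLRC5 is a nuclear protein that acts with DNA-bound factors at class I gene promoters, and loss of class I expression is a known feature of many human lymphomas.

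Library totals ran from 7773546 to 9602413 counts. Where no count was seen, the limit taken was 3 counts, or 0.294 to 0.379 CPM depending on the library. The intervals given below are exact Poisson 95% intervals and cover counting error only. Lymphoma 2 may not be independent of lymphoma 1. Over the 35 genes at 50 CPM or more in lymphoma 1 and at least 20-fold above lymphomas 3 and 4, lymphoma 2 lay at a median of 0.667 of the level in lymphoma 1 (quartiles 0.648 and 0.706). Whether these 2 samples share cells or RNA was not tested. The marker genes of lymphocytes also differed between libraries. The 10 B cell markers summed to 71.3, 1458, 4852 and 6654 CPM in lymphomas 1 to 4, and the 12 T cell markers to 6332, 4866, 916 and 1194 CPM. Of the 12 T cell markers, 10 were lowest in lymphoma 3 (22.1% of all genes) and 2, Lck and Zap70, in lymphoma 4 (33.2%). These 2, picked with their values in view, were at 315 and 482 CPM in lymphoma 3 and made up most of its sum of 916 CPM. The B cell receptor gene Cd79a was at 24, 248, 1314 and 1151 CPM and the T cell receptor complex gene Cd3d at 653, 480.4, 0.981 and 55.1 CPM. In such bulk samples, fewer cells of a type and less RNA per cell cannot be told apart.

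Lymphoma 4 held the highest level of 7 of the 10 genes, and lymphoma 1 the highest of the other 3. The 7 were H2-K1, H2-D1, B2m, Nlrc5, Tap1, Tapbp and Psmb9. The 3 were Tap2, Psmb8 and Psmb10. Of the 13543 genes tested, 34% had their highest value in lymphoma 4 and 29.4% had it in lymphoma 1, so the 7 are above and the 3 near the share over all genes. Lymphoma 1 was the lowest library for 6 genes (39.5% of all genes), lymphoma 3 for Tap2, Tapbp and Psmb8 (22.1%), and lymphoma 4 for Psmb10 alone (33.2%). None of the 10 was highest (6.31% of all genes) or lowest (5.25%) in lymphoma 2, and none was highest in lymphoma 3 (30.3%). In total 6 genes were highest in lymphoma 4 and lowest in lymphoma 1 (23%), and 3 were highest in lymphoma 1 and lowest in lymphoma 3 or 4 (29%). In 5 genes (H2-K1, H2-D1, Nlrc5, Tap1 and Psmb9) the libraries ranked 1, 2, 3, 4 from low to high, an order found in 11.1% of all genes, and B2m ranked 1, 3, 2, 4 (9.67%). Without lymphoma 2, 6 genes ranked 1, 3, 4, against 23.4% of all genes. The 7 were highest in lymphoma 4 under every scaling tried and in the FPKM table. With total counts and no TMM factor, Tap2 was instead highest in lymphoma 2 and Tapbp lowest in lymphoma 1. Psmb9 was lowest in lymphoma 2 with DESeq2 size factors, and Psmb10 was lowest in lymphoma 3 with both of these scalings.

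The spread between tumours was uneven across the pathway. The highest library was 8-fold or more above the lowest, in CPM + 1, for 2 of the 10 genes, Nlrc5 and H2-K1, beside 16.3% of all genes. At 4-fold the count was 3, with H2-D1 added, beside 35.7% of all genes. The median ratio of highest to lowest library was 2.94 over the 10 genes, from 1.73 in Psmb10 to 215 in Nlrc5, and 2.98 over all genes. The median level of the 10 genes was 7.48, 7.55, 7.49 and 8.47 log2(CPM + 1) in lymphomas 1 to 4. The first 3 libraries were close together, and lymphoma 4 lay 0.99 above the lowest. The median of all genes ranged over 0.35.

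**Figure D1:**
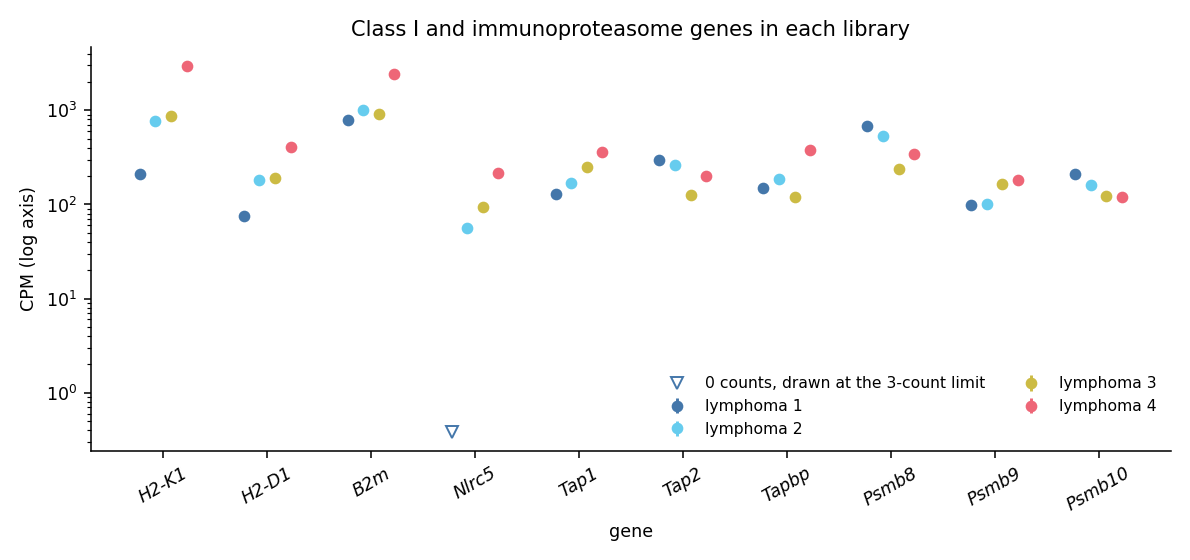
CPM of the 10 genes (x axis) in each of the 4 libraries (colours) on a log axis. Bars are exact Poisson 95% intervals, mostly smaller than the points. Lymphoma 4 is the highest library for H2-K1, H2-D1, B2m, Nlrc5, Tap1, Tapbp and Psmb9, lymphoma 1 for Tap2, Psmb8 and Psmb10, and Nlrc5 has 0 counts in lymphoma 1.

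The heavy chain and light chain genes were all highest in lymphoma 4 and lowest in lymphoma 1. H2-K1 (chromosome 17, 33996017 to 34000347, minus strand, GRCm38, the assembly also called mm10, protein coding), which encodes the classical heavy chain K, was at 210.0, 776, 865 and 2942 CPM (interval 2906 to 2977 in the last) in lymphomas 1 to 4. Its mean was 1198 ± 1198 CPM (SD, n = 4), and lymphoma 4 was 14.0-fold above lymphoma 1. H2-D1 (chromosome 17, 35262730 to 35267499, plus strand), which encodes the classical heavy chain D, was at 75.2, 184, 192 and 411 CPM, with a mean of 215 ± 141 CPM (SD, n = 4). Lymphomas 2 and 3 had overlapping intervals for H2-D1, and lymphoma 4 lay 5.46-fold above lymphoma 1. B2m (chromosome 2, 122147686 to 122153083, plus strand), whose product is the light chain shared by class I molecules, was at 796, 1019, 920.2 and 2428 CPM. The first 3 libraries were close together for B2m, with neighbouring libraries 1.11- to 1.16-fold apart, and lymphoma 4 was 2.38-fold above the next. Short transcripts were lower in lymphoma 4 as a class, with a median difference to lymphoma 1 of -0.86 log2(CPM + 1) in the shortest 20% of genes. H2-K1 and B2m belong to that class and differed by 3.80 and 1.61, above 97.3% and 89.2% of it.

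The promoters of these 3 chain genes, which lie on 2 chromosomes, are shown as a description. Their highest and lowest libraries, lymphomas 4 and 1, were also those of 23% of all genes. Class I promoters are known for a composite module in which a cyclic AMP response element-like box and, further on, an inverted CCAAT box bind a complex that includes RFX proteins, CREB or ATF1 and NF-Y, and NLRC5 acts through it. RefSeq windows (GRCm38.p6, 250 bases before to 50 after a gene's start) were given for 8 of the 10 genes, all but Nlrc5 and Tap2. Short cores were searched on both strands, with TGACG for the response element and ATTGG for the inverted CCAAT. In H2-K1, H2-D1 and B2m they stood in the same orientation with 20 bases between them. The stretches lie at chr17:34000359-34000388 (minus strand), chr17:35262993-35263022 (plus strand) and chr2:122147609-122147638 (plus strand). From the RefSeq start, that of H2-K1 begins at -41 or -55, as the gene has 2 windows. Those of H2-D1 and B2m begin at -101 and -78. The H2-D1 stretch lies inside the gene span given above, since the RefSeq start falls after the first base of that span. The stretches are printed 5′ to 3′ with the cores in capitals.
H2-K1: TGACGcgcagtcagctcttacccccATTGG
H2-D1: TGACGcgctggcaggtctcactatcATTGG
B2m: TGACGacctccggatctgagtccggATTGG
Between the cores, H2-K1 and H2-D1 shared 13 of 20 bases, H2-K1 and B2m 3, and H2-D1 and B2m 2. Of 32851 windows, 20.8% held TGACG, 37.4% held ATTGG and 0.0944% (31 windows of 27 genes) held both at this spacing, which was itself taken from these 3 genes. The 27 genes included H2-M3, a class I gene at 11.5, 28.2, 44.9 and 87.6 CPM, and Trim26, at 27.8, 68.8, 70.1 and 145 CPM. Both were highest in lymphoma 4. Others went the other way, such as Hnrnpf at 983, 774, 523 and 344 CPM and Nrarp at 103, 65.4, 15.3 and 1.32 CPM. These 4 genes were picked with their values in view. Of the 22 such genes that reached 1 CPM, the 3 class I chain genes included, 8 were highest in lymphoma 4, a share near the 34% of all genes.

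The wider promoters of H2-K1 and B2m were searched for further motifs. The stretch just before each start, from chr17:34000349-34000497 (minus strand) and chr2:122147537-122147685 (plus strand), are given below. Capitals mark both cores named above, the interferon response core AANNGAAA on either strand (TTTCACTT in H2-K1, AACTGAAA in B2m) and the NF-kappa B core GGGATTCC.
H2-K1: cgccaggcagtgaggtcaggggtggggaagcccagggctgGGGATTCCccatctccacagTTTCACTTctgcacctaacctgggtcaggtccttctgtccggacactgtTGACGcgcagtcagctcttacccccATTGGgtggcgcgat
B2m: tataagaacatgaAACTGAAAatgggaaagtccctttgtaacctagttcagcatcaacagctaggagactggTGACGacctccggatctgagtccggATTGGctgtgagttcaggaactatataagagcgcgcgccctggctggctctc
GGGATTCC, found in 1.06% of windows, was in the H2-K1 and H2-D1 windows and not in that of B2m. AANNGAAA, found in 23.9% of windows, was in all 3. Among the other members, the Tap1 and Psmb9 windows each held TGACG and ATTGG on opposite strands, Tapbp held ATTGG only, and Psmb8 and Psmb10 held none of the cores searched. A match of letters is a description of the window and not of binding.

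The balance between heavy chains and light chain differed between lymphoma 1 and lymphoma 4. Levels of different genes were compared per length, in FPKM. The FPKM ratio of H2-K1 to B2m was 0.115, 0.267, 0.350 and 0.527 in lymphomas 1 to 4, a 4.59-fold range. For H2-D1 to B2m it was 0.238, 0.361, 0.400 and 0.449. Both heavy chains together stood at 0.352, 0.629, 0.750 and 0.977 of B2m in lymphomas 1 to 4. From counts per kilobase these were 0.179, 0.478, 0.585 and 0.713. The heavy chain RNAs were thus below the light chain RNA in every library in both tables, and furthest below it in lymphoma 1. How near the chains were in lymphoma 4 depends on the table. By counts per kilobase, H2-D1 to B2m was highest in lymphoma 3 (0.0855) and at 0.0692 in lymphoma 4. H2-K1 was below H2-D1 in lymphomas 1, 2 and 3 (ratios of 0.483, 0.740 and 0.873) and above it in lymphoma 4 (1.17). The level of H2-D1 against H2-K1 depends on the table. H2-D1 had 0.123 of the counts that its FPKM and transcript length give relative to the median gene, below the 5th percentile over all genes (0.432), while H2-K1 had 0.868. Of the 50-base windows of the H2-D1 transcript, 14.3% also occur in transcripts of other genes, 7.40% in H2-Q1. Counts alone put H2-K1 at 2.79 to 7.16 times H2-D1, and in both tables the ratio increased from lymphoma 1 to 4.

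Among the other class I and class I-like genes, 17 of 22 passed 1 CPM, and these had no common order. Lymphoma 4 had the highest level of 7, lymphoma 1 of 5, lymphoma 3 of 3 and lymphoma 2 of 2, beside 34%, 29.4%, 30.3% and 6.31% of all genes. H2-Q4, the most abundant of them, was at 40.4, 211, 376 and 434 CPM. H2-Q10 was at 32.2, 28.9, 0 and 1.21 CPM, high in lymphomas 1 and 2 and lowest in lymphoma 3. H2-T23, which encodes the nonclassical heavy chain Qa-1 and was picked with its values in view, was at 140.2, 199, 133 and 494 CPM, with its highest level in the same library as H2-K1 and H2-D1. H2-L, H2-Q6 and H2-Q7 had 0 counts in every library but were above 0 in the FPKM table, so their levels are uncertain. Those of H2-Q4 and H2-T23 are uncertain too, since 39.2% and 29.8% of their 50-base windows occur in other genes' transcripts.

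Nlrc5 (chromosome 8, 94434356 to 94527272, plus strand), the transactivator gene, had 0 counts in lymphoma 1 and 503, 965 and 1950 counts in lymphomas 2 to 4. These are 0, 56.1, 94.7 and 214 CPM, and the FPKM table gave 0, 3.47, 6.48 and 11.6. Against the limit of 3 counts in lymphoma 1, the other libraries were at least 148-, 249.8- and 566-fold higher. Of the 2503 genes at 50 CPM or more in lymphomas 2, 3 and 4, Nlrc5 was the only gene with 0 counts in lymphoma 1, which is 0.04%. It was also the only gene of 5495 when the minimum was 20 CPM, and 1 of 6 among 7289 genes at 10 CPM, with Prf1, Srpk3, Tagap, Gm1966 and 9930111J21Rik1. These minimums were chosen with its values in view. The gene closest to it, by the lowest of the other libraries over lymphoma 1, was the B cell gene Cd22, with 19 counts in lymphoma 1. In CPM + 1 this ratio was 57.1 for Nlrc5 and 56.5 for Cd22.

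The genes on either side of Nlrc5 with 100 or more counts in all mostly had counts in lymphoma 1. Of the genes within 300 kb, Mt4, Pllp, Ccl22, Cx3cl1 and Ccl17 also had 0 counts there, of which only Pllp, with 196 counts in lymphoma 3, passed 17 counts in any library. Herpud1, 39.0 kb before Nlrc5, was at 66, 94.1, 200.3 and 216 CPM in lymphomas 1 to 4, and Cpne2, 5.72 kb after it, was at 11.9, 10.6, 2.65 and 3.85 CPM. Fam192a, 46.9 kb after, was at 68.1, 55.4, 75.1 and 52.8 CPM. Lymphoma 1 thus had reads from genes on both flanks. No 50-base window of the Nlrc5 transcript occurs in another gene's transcript. Nlrc5 overlaps a short antisense RNA gene, 9330175E14Rik, over 748 bases, and no source used here gives the strand setting of the counts. The principal transcript used here is 7578 bases long. Long transcripts were lower in lymphoma 1 as a class, and the longest 20% of genes had a median of 1.08 log2 higher in lymphoma 4 than in lymphoma 1. Nlrc5 differed by 7.75 log2(CPM + 1), above 99.96% of that class. Of the 165 genes at 50 CPM or more in lymphomas 2 to 4 with a transcript as long or longer, 1 had 0 counts in lymphoma 1 (0.606%). That 1 is Nlrc5 itself, whose own length set this minimum.

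**Figure D2:**
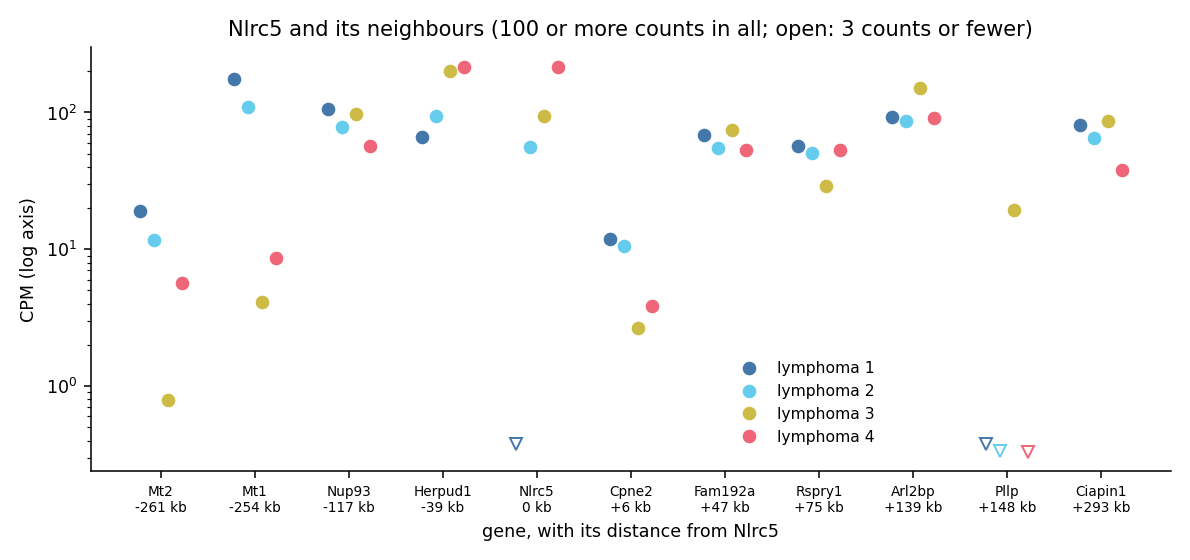
CPM on a log axis of Nlrc5 and of the protein-coding genes within 300 kb that had 100 or more counts in all, by library, ordered along the chromosome with the distance from Nlrc5 in kb. Open triangles mark 3 counts or fewer, drawn at the 3-count limit. Nlrc5 has no count in lymphoma 1, while Herpud1 and Fam192a on its flanks are above 60 CPM there.

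The profile of Nlrc5 over the 4 libraries lay far from those of the other 9 genes. Profiles were compared as log2(CPM + 1) centred on their mean over the 4 libraries, by Euclidean distance. Its nearest member was H2-K1, at a distance of 3.63. The 4 nearest protein-coding genes among the 9634 at 10 CPM or more were Pax5 (0.51), Wdfy4 (0.55), Siglecg (0.66) and Plcg2 (0.76). Pax5 is in the list of B cell markers, which was lowest in lymphoma 1 in all 10 genes (39.5% of all genes). Pax5 was at 2.65, 167, 423 and 613 CPM, with 21 counts in lymphoma 1. Ebf1, of the same list and picked with its values in view, had 1 count there. It had 360, 1438 and 1115 counts in lymphomas 2 to 4. The part of B cell content in the level of Nlrc5 was not tested.

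The genes of peptide transport and loading split into separate patterns. Tap1 (chromosome 17, 34187553 to 34197225, plus strand) encodes one chain of the TAP transporter and was at 128, 168, 249.3 and 365 CPM, with a mean of 227 ± 105 CPM (SD, n = 4). Tap2 (chromosome 17, 34203527 to 34216321, plus strand) encodes the other chain and was at 299.8, 263, 125 and 199 CPM, with a mean of 222 ± 77.0 CPM (SD, n = 4). Of its 50-base windows, 12.6% occur in other genes' transcripts, mostly the antisense RNA gene Gm15821. No neighbouring intervals overlapped in either gene, and lymphoma 4 was 2.86-fold above lymphoma 1 in Tap1 but at 0.663 of it in Tap2. The 2 chains form a heterodimer, yet their FPKM ratio, Tap1 to Tap2, was 0.317, 0.455, 1.65 and 1.38 in lymphomas 1 to 4, a 5.20-fold range (4.70-fold from counts). Tap1 was thus the lower of the 2 RNAs in lymphomas 1 and 2 and the higher in lymphomas 3 and 4. Tapbp (chromosome 17, 33915899 to 33929292, plus strand), the tapasin gene, was at 150.3, 188, 121 and 378 CPM, so lymphoma 3 was its lowest library and lymphoma 4 lay 2.01-fold above the next. Of the 50-base windows of its transcript, 21% occur elsewhere, 19.0% in the antisense gene Gm19412, so its level is uncertain to that extent. Its FPKM ratio to Tap1 was 1.23, 1.25 and 1.11 in lymphomas 1, 2 and 4 and 0.501 in lymphoma 3.

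Of the other loading genes, 7 of 8 were lowest in lymphoma 3 (22.1% of all genes), or 5 of 8 with total counts and no TMM factor. Calr, the chaperone calreticulin, was at 934, 745, 425 and 624 CPM. Pdia3, the oxidoreductase of the loading complex, was at 839.8, 660, 287 and 416 CPM. Both had their highest level in lymphoma 1 and their order over the libraries was that of Tap2 and Psmb8. Pdia3 was the second nearest of the 9634 genes to Psmb8, at a distance of 0.040.

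The immunoproteasome genes differed from each other in pattern. Psmb8 (chromosome 17, 34197721 to 34201454, plus strand), which encodes the beta-5i subunit, was at 680.2, 535, 240.0 and 343 CPM, highest in lymphoma 1. Psmb9 (chromosome 17, 34181987 to 34187764, minus strand), which encodes beta-1i, was at 99.3, 101, 167 and 181 CPM. Lymphomas 1 and 2 had overlapping intervals for Psmb9, as did lymphomas 3 and 4, so it formed a low and a high pair. Psmb10 (chromosome 8, 105935735 to 105938444, minus strand), which encodes beta-2i, was at 208, 163, 122 and 119.9 CPM, with lymphomas 3 and 4 overlapping. It had the narrowest range of the 10 genes. The means were 449.6 ± 196, 137 ± 43.1 and 153 ± 41.6 CPM (SD, n = 4) for Psmb8, Psmb9 and Psmb10. Per length, Psmb9 stood at 0.217, 0.271, 0.888 and 0.780 of Psmb8 in lymphomas 1 to 4, a 4.09-fold range, so the 2 subunits were nearly level in lymphoma 3 and far apart in lymphoma 1.

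Tap1, Tap2, Psmb8 and Psmb9 are neighbours in the MHC, and their profiles fell into pairs. The order along chromosome 17 is Psmb9, Tap1, Psmb8 and Tap2, within 34.3 kb. Psmb9 and Tap1 are divergent genes that overlap by 212 bases, and Psmb8 and Tap2 follow on the strand of Tap1. Lymphoma 4 stood at 1.82 and 2.86 times lymphoma 1 for Psmb9 and Tap1, and at 0.505 and 0.663 for Psmb8 and Tap2. Within libraries the FPKM ratio of Tap1 to Psmb9 varied 1.57-fold and that of Tap2 to Psmb8 1.30-fold, beside 5.20-fold for Tap1 to Tap2 and 4.09-fold for Psmb9 to Psmb8. Of all pairs of the 10 genes, Tap2 and Psmb8 had the closest profiles (distance 0.28), then B2m and Tapbp (0.42), then Tap1 and Psmb9 (0.47). Next were Psmb10 with Tap2 (0.56) and Psmb10 with Psmb8 (0.61). B2m lies on chromosome 2 and Psmb10 on chromosome 8, so close profiles were not limited to neighbouring genes. Overlapping transcripts limit this for both pairs of neighbours. Psmb8 and Tap2 are both overlapped by the antisense gene Gm20496, over 2139 and 1923 bases, and 5.83% of the Psmb8 windows occur in it. Of the 50-base windows of the Psmb9 transcript, 12.5% occur in Tap1, and without a stated strand setting reads there cannot be assigned to one gene.

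**Figure D3:**
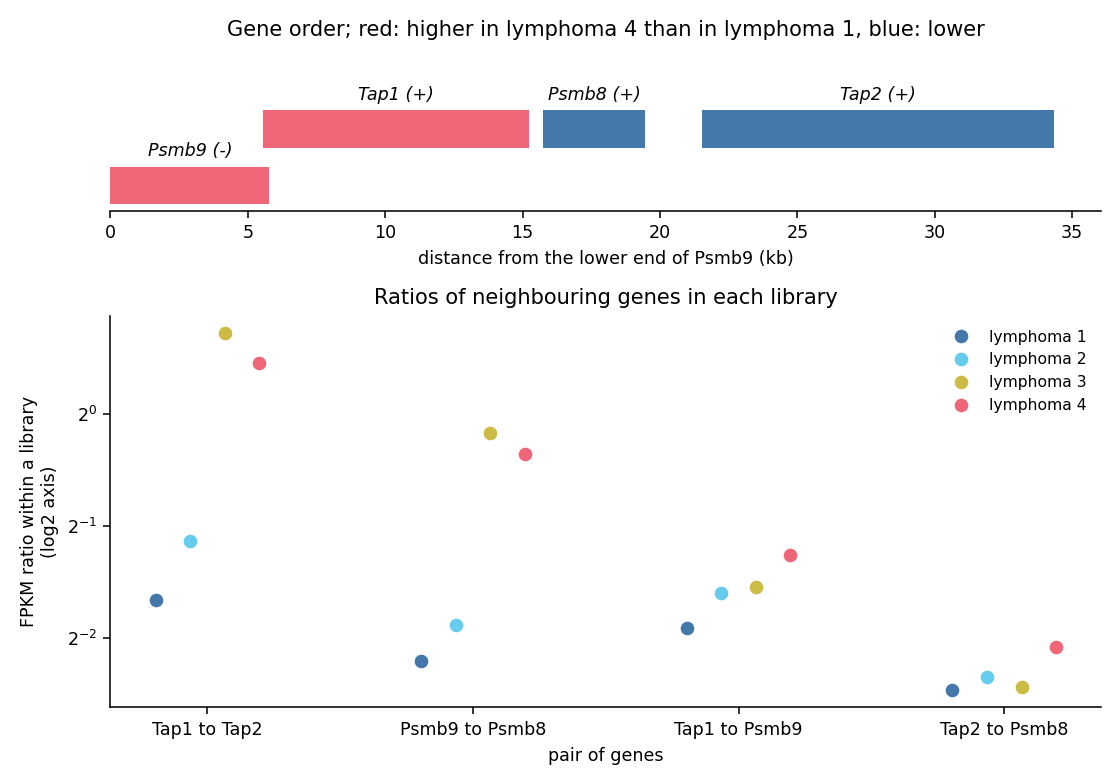
Top, the 4 neighbouring MHC genes drawn to scale in kb from the lower end of Psmb9, in red where lymphoma 4 is above lymphoma 1 in CPM and in blue where it is below. Below them, the FPKM ratio of pairs of these genes in each library on a log2 axis. Tap1 to Tap2 and Psmb9 to Psmb8 are higher in lymphomas 3 and 4 than in 1 and 2, and Tap2 to Psmb8 varies 1.30-fold.

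The constitutive catalytic subunits, which the immunoproteasome subunits replace, were lowest in lymphoma 4 in 3 of 3 genes (33.2% of all genes) and highest in lymphoma 1 in all 3, except that Psmb6 was highest in lymphoma 3 with total counts and in the FPKM table. Psmb5, the counterpart of Psmb8, was at 75.7, 54.6, 47.4 and 13.3 CPM. Psmb6, the counterpart of Psmb9, was at 382, 272, 304 and 46.3 CPM. Psmb7, the counterpart of Psmb10, was at 435, 314, 211 and 74.5 CPM. Lymphoma 4 was the low library in all 3, while Psmb9 was highest there and Psmb8 and Psmb10 were below their level in lymphoma 1. The FPKM ratio of each immunoproteasome subunit to its counterpart was accordingly highest in lymphoma 4. For Psmb8 to Psmb5 it was 1.39, 1.495, 1.05 and 6.005, and 4.96, 5.41, 2.80 and 14.2 from counts per kilobase. Psmb5 had 0.169 of the counts that its FPKM and length give relative to the median gene, below the 5th percentile (0.432), so the size of this ratio is uncertain, while lymphoma 4 was highest in both tables. For Psmb9 to Psmb6 it was 0.354, 0.487, 0.610 and 5.56, and 0.153, 0.218, 0.324 and 2.31 from counts per kilobase. The size of this ratio thus also depends on the table, while lymphoma 4 was highest in both. For Psmb10 to Psmb7 it was 0.345, 0.381, 0.421 and 1.33, and 0.424, 0.459, 0.514 and 1.42 from counts per kilobase.

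The summed FPKM of the 3 immunoproteasome genes was 625, 572, 419 and 477 in lymphomas 1 to 4, and that of the 3 constitutive genes was 895, 719.7, 628 and 126. The ratio of the sums was 0.699, 0.794 and 0.667 in lymphomas 1, 2 and 3 and 3.77 in lymphoma 4, where the immunoproteasome RNAs were in excess. In lymphoma 4 the immunoproteasome sum was below those of lymphomas 1 and 2, and the constitutive sum was the lowest of the 4. From counts per kilobase the ratios were 0.693, 0.784, 0.592 and 3.18. All 6 genes are in the shortest 20% of transcripts, whose median was 0.86 log2 lower in lymphoma 4 than in lymphoma 1. Against that median, Psmb8 and Psmb10 were near it (-0.98 and -0.79), Psmb9 was above it (0.86), and Psmb5, Psmb6 and Psmb7 were below it (-2.42, -3.02 and -2.53). The part of length in these levels was not tested beyond this. The counts of Psmb5 and Psmb7 are uncertain, since 57.1% and 28.1% of their 50-base windows occur in other genes' transcripts, for the most part Gm3375 and Nek6.

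**Figure D4:**
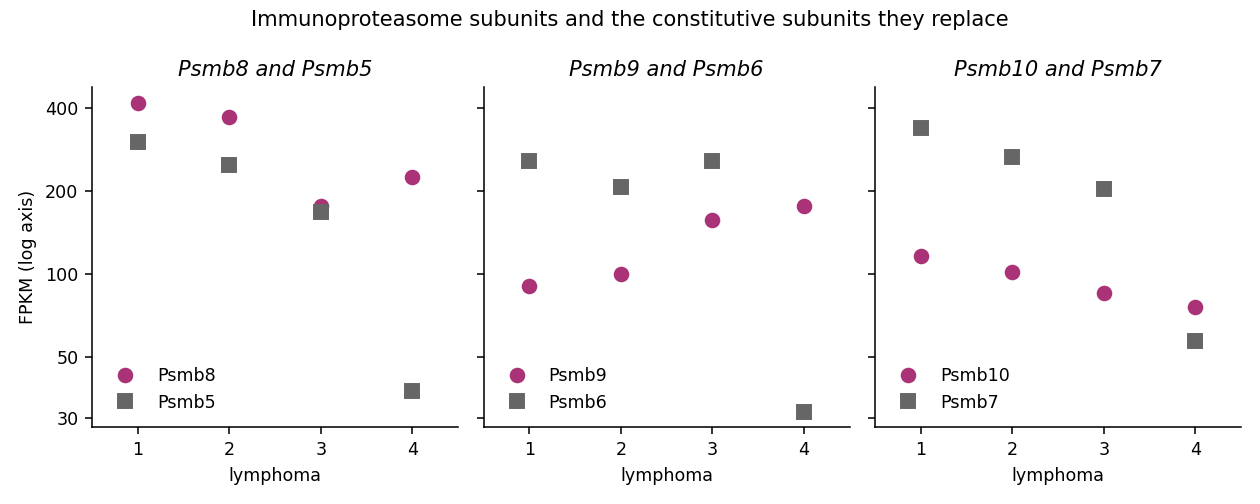
FPKM on a log axis of each immunoproteasome subunit gene (circles) and of its constitutive counterpart (squares) in lymphomas 1 to 4. In lymphoma 4 all 3 constitutive genes are at their lowest level and lie below their counterparts, whereas in lymphomas 1 to 3 Psmb6 and Psmb7 lie above theirs.

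All 11 genes of the standard 20S core list were highest in lymphoma 1 and lowest in lymphoma 4 (29.4% and 33.2% of all genes). Psmb1, the most abundant, was at 639.5, 481, 354 and 289.8 CPM, and Psma6, the most variable, was at 483, 358, 312 and 68.8 CPM. Of the genes of the PA28 activators, which cap the proteasome, Psme1 was at 264, 232, 332 and 274 CPM, highest in lymphoma 3. Psme2 and Psme3 had the highest and lowest libraries of the core genes. Psme2 was at 235, 193, 143 and 133 CPM, and Psme3, of the nuclear form of the activator, was at 393, 304, 333 and 154 CPM. Pomp, which assembles new proteasomes, was at 337, 249.6, 211 and 60.8 CPM. Of 10 housekeeping genes outside the proteasome, 6 were lowest in lymphoma 4 (33.2% of all genes). In lymphoma 1, 7 were highest (29.4%), or 4 with total counts and 5 in the FPKM table. The rest were lowest elsewhere, Actb and Polr2a in lymphoma 1, Tbp in lymphoma 2 and Ywhaz in lymphoma 3. The 10 genes summed to 11863, 9188, 8939 and 4860.4 CPM. Gapdh, the most abundant and most variable of them, was at 4655, 3232, 2052 and 531 CPM, 8.77-fold between highest and lowest library. Low levels in lymphoma 4 were thus also seen in some genes outside the proteasome. Psma6 and Gapdh, with transcripts of 1042 and 1420 bases, are in the shortest 20% of genes (up to 1675 bases). The median difference of lymphoma 4 to lymphoma 1 in that class was -0.86 log2(CPM + 1). Psmb1, at 1758 bases, is just outside it. The part of transcript length in the levels of the core and housekeeping genes was not tested.

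Genes of the interferon gamma axis and of the class I promoter complex were often highest in lymphoma 4. This held for 8 of the 10 axis genes and for 11 of 16 promoter factor genes, beside 34% of all genes. Irf1, an interferon-induced transcription factor picked with its values in view, was at 37.3, 75.5, 55.1 and 203 CPM. Ifng itself had 0 counts in lymphomas 1 and 3 and was at 3.57 and 6.82 CPM in lymphomas 2 and 4. Jak1, the most abundant of the axis, was at 164, 265, 160.1 and 459 CPM, and Irf8, the most variable, was at 22.1, 108, 316 and 337 CPM. Nfkb1, the most abundant promoter factor gene, was at 186, 214, 125 and 403 CPM, and the coactivator gene Crebbp, the most variable, at 2.65, 42.4, 51.4 and 98.9 CPM. The 3 subunits of NF-Y did not go together. Nfya was highest in lymphoma 4 (61.8, 67.6, 65.4 and 133 CPM), while Nfyb was at 91.2, 73.0, 65.4 and 41.0 CPM and Nfyc at 56.9, 58.6, 60.1 and 38.0 CPM, both lowest there. Nfya was also the gene nearest to the median profile of the 10 genes (distance 0.073), followed by Mmaa, Dync1li2, Rabgef1 and Chm.

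Class II genes, which present peptides to CD4 T cells and are largely restricted to B cells, dendritic cells and macrophages, varied more between libraries than the 10 class I pathway genes, with a median ratio of highest to lowest library of 66.5 beside 2.94. All 10 were highest in lymphoma 4 by counts (34% of all genes) and 9 of 10 in the FPKM table, where H2-DMb1 was highest in lymphoma 3. All 10 met the 8-fold rule (16.3%), and 9 were lowest in lymphoma 1 (39.5%). Their sums were 296, 2786, 5100 and 17440 CPM. Cd74, the invariant chain, was at 90.2, 1149.8, 1854 and 5941 CPM, and Ciita, the class II transactivator and a relative of Nlrc5, at 1.01, 96.5, 63.1 and 286 CPM. Ciita was thus low in lymphoma 1, with 8 counts, but above 0.

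Markers of other antigen-presenting and myeloid cells were also highest in lymphoma 4. The sums in lymphomas 1 to 4 were 135, 375, 167 and 517 CPM for 10 macrophage and monocyte markers, 36.9, 79.7, 19.4 and 159 CPM for 9 dendritic cell markers, 23.1, 170.1, 97.1 and 636 CPM for 9 neutrophil markers and 3.03, 123, 36.2 and 205 CPM for 8 natural killer and cytotoxic markers. Of these, 9 of 10, 8 of 9, 7 of 9 and 6 of 8 were highest in lymphoma 4, beside 34% of all genes, and the FPKM table gave 7 of 10 for the macrophage and monocyte markers. With 0 counts in lymphoma 1 were C1qc, Fcgr1, the dendritic cell markers Cd209a, Xcr1 and Zbtb46, and Prf1. The part of these cells in the class I levels of lymphoma 4 was not tested.

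**Figure D5:**
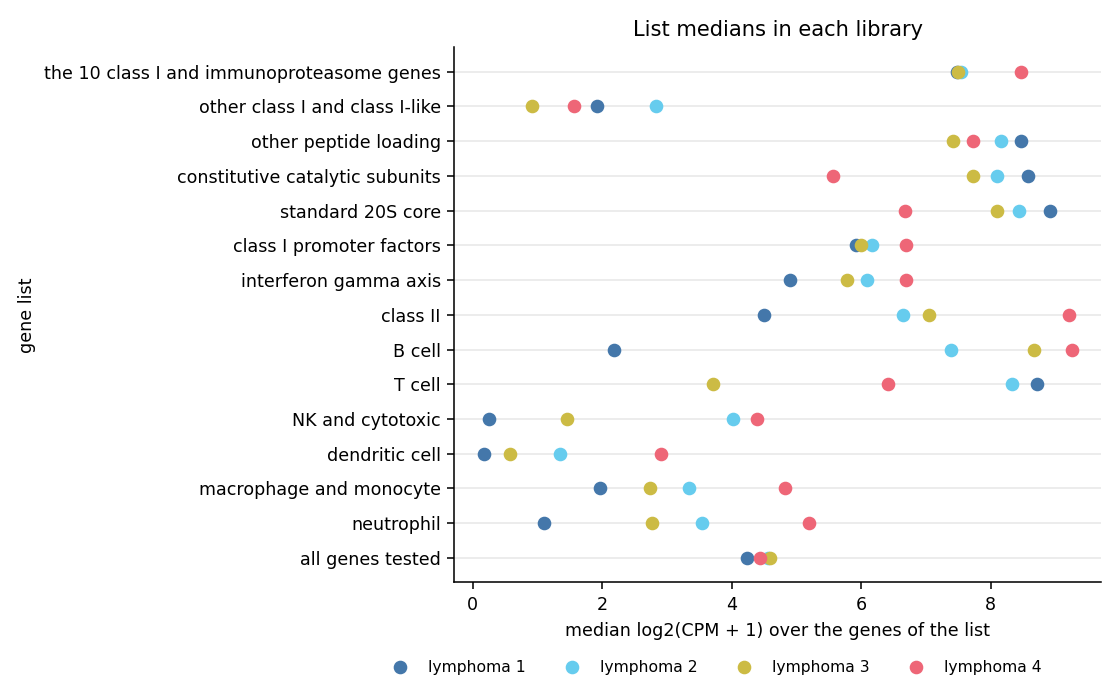
Median log2(CPM + 1) over the genes of each list (rows) in the 4 libraries (colours). The 10 class I and immunoproteasome genes are near 7.5 in lymphomas 1 to 3 and at 8.47 in lymphoma 4, class II and B cell lists are lowest in lymphoma 1, and the proteasome core and constitutive subunits are lowest in lymphoma 4.

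The nearest profiles of the other members are given as a description. H2-D1 lay closest to Trim26 (0.076), one of the genes with the composite stretch, H2-K1 to Tnfrsf4 (0.12) and B2m to Adgre5 (0.015). Tap1 lay closest to Nsmaf (0.050), Tap2 to Dnajc3 (0.054), Tapbp to Csnk1g3 (0.065), Psmb8 to Chtf8 (0.035), Psmb9 to Pik3c3 (0.029) and Psmb10 to Surf1 (0.028). With 4 libraries and 9634 genes, nothing particular to a pair follows from a close match.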

How the data were processed

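The authors deposited whole-number gene counts. The submitters' processing notes name STAR 2.4.2a and the build mm10. A table read here as FPKM was also deposited by the authors, and the notes name Cufflinks 2.2.1. It names no unit, and 5 of its columns match no sample label and were not used. The annotation release, the strand setting and the filters of either table are not stated in any source used here. In the count table, 26 rows whose symbol had become a date (0.191% to 0.201% of counts) were left out.

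CPM were computed with edgeR 4.0.16 TMM factors (0.838, 0.961, 1.06 and 1.17 for lymphomas 1 to 4) from the 13543 genes at 1 CPM or more in at least 1 library, in R 4.3.3. Tables and figures were made in Python 3.11.15. Ranges use CPM + 1, which understates the change of low genes. Positions and principal transcript lengths are from GENCODE M21. The rules of size were tested on simulated counts in which chosen genes were raised in 1 library. All other genes had the same mean level in every library there, whereas the median gene here differed 2.98-fold. The simulation therefore does not show how the rules behave on such a background. The 4 samples form 1 group, so no p-value was computed. The rule for names takes all 10 genes, the most abundant and the most variable gene of each list, all constitutive catalytic and PA28 genes, and the nearest profiles. Some genes that fall under this rule or these lists are not reported here. Further genes were picked with their values in view. The 10 genes and the 18 lists were chosen with earlier results of these data known. Alternatives were DESeq2 1.42.0 size factors, total counts, no filter, the FPKM table, a pseudocount of 0.25 CPM, a 4-fold rule, counts per kilobase and leaving out each library. Protein sequences and the promoters of Nlrc5 and Tap2 were not analysed here.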

Additional observations from a re-analysis of the deposited data

Results flagged for a closer look

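Of 48 values tested for a library far from the other 3 (Dixon's rule on the gap over the range, at 95%), 5 were past the limit, and chance alone gives about 1 in 20 such calls. The values tested share genes and are not independent. Lymphoma 4 stood apart in 4 of the 5. The median of the 10 genes was high there, at 8.47 log2(CPM + 1). The log2 FPKM ratio of the summed immunoproteasome genes to the summed constitutive genes was high, at 1.92, as was that of Psmb10 to Psmb7, at 0.41. Psmb6 was low, at 5.56 log2(CPM + 1). Lymphoma 3 stood apart once, with a low log2 FPKM ratio of Tapbp to Tap1 of -0.997.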

How the results depend on the processing

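No paired analysis was possible because the samples form 1 group with no numbers shared with another group. The results that summarise the 10 genes kept their size within 1 SD, or within 1.5 times for a count, in 59 of 64 comparisons with an alternative. The range of the median over libraries, 0.99, was 0.47 in the FPKM table. Leaving out 1 library at a time, it lay between 0.0758 (without lymphoma 4) and 1.05, the number of genes past 8-fold between 0 (without lymphoma 1) and 2, with 1 without lymphoma 4, and the range of the log2 ratio of immunoproteasome to constitutive genes between 0.25 (without lymphoma 4) and 2.50. The mean of that log2 ratio was 0.12 ± 1.202 (SD, n = 4) and -0.48 without lymphoma 4. Total counts moved the median of all genes by -0.24, -0.06, 0.08 and 0.22 log2 in lymphomas 1 to 4. With them, the difference of lymphoma 4 to lymphoma 1 became 1.34 in Psmb9 (0.86 with TMM factors) and -0.31 in Psmb10 (-0.79). All 11 proteasome core genes were lowest in lymphoma 4 under each scaling and in the FPKM table. Depth limits only Nlrc5 in lymphoma 1, whose fold against the other libraries is a lower bound.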
